A study of Arabidopsis thaliana with 12 samples.

Results

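AT3G61930, AT5G04730 and AT4G19370 are 3 protein-coding genes of Arabidopsis thaliana that were chosen together because earlier results of these arrays showed them high in roots without Fe and in roots of the irt1 mutant, and steady in shoots. Each was measured by 1 probe set that the platform annotation assigns to that locus alone, namely 251293_at for AT3G61930, 250855_at for AT5G04730 and 254571_at for AT4G19370. They are 3 of 13286 loci with a named probe set, and their probe sets are 3 of the 22746 left after 64 control probe sets were set aside. In RefSeq's gene table for TAIR10.1 the genes lie on chromosomes 3, 5 and 4, in that order. Neither that table nor the platform annotation gives any of the 3 a name or a product, so no role is stated for their proteins. No sequence of these genes was used here.

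The study compared Fe-deficient and irt1 seedlings with wild-type (WT) Col-0 seedlings, in roots and in shoots. The groups were WT roots without Fe, irt1 roots with Fe, WT roots with Fe, WT shoots without Fe, irt1 shoots with Fe and WT shoots with Fe, with 2 arrays in each of the 6. All plants had 10 days on a control medium and then 5 days on washed agar, which held 10 µM Fe-HBED (an Fe chelate) in the groups with Fe and no added Fe in the others, and were harvested at 15 days of age, 3 h into the light period. The mutant, irt1-2 (pam42) in the series title, was grown with Fe in every group used here, so its response to a medium without Fe was not measured. The titles call the 2 arrays of a group biological replicates and do not say how plants were pooled.

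Arabidopsis roots take up Fe by acidifying the soil, reducing ferric Fe at the root surface and importing ferrous Fe through IRT1. When Fe runs short, bHLH transcription factors and small IMA peptides raise the genes of this system, while E3 ligases of the BTS family hold it back. Roots also make and release coumarins such as fraxetin, which mobilise Fe from poorly soluble forms. Loss of IRT1 leaves a plant short of Fe on media that suffice for WT plants. The probe sets for IRT1, FRO2 and FIT carry no gene in the annotation used here, so the disrupted gene itself was not analysed here.

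The organ labels were checked on named markers. The 2 measured root markers of a list of 5, PER27 and AT4G15390, were higher in WT roots than in WT shoots, both with Fe, by log2 differences of 7.35 ± 0.23 and 6.55 ± 0.31 (SE). All 4 measured shoot markers of a list of 6 were lower in WT roots, by log2 differences of -4.95 to -5.3. Replicate arrays correlated across probe sets with r from 0.991 to 0.9963. In the GAPDH control, replicate 1 of irt1 shoots had a 3' minus 5' log2 difference of 1.6, against 0.7 to 1 on the other 11 arrays. Differences of irt1 shoots are therefore also given without that array.

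The levels of AT3G61930 separated the groups of roots widely. Its deposited log2 values were 9.5 and 10.2 in WT roots without Fe, 8.7 and 8.1 in irt1 roots, and 5.2 and 5.4 in WT roots with Fe. In shoots they were 3.5 and 3.8 without Fe, 3.6 and 3.5 in irt1, and 3.5 and 3.7 in WT with Fe. The 3 root groups thus stood in a clear order, each array of one group above each array of the next, and both WT root arrays with Fe were above every shoot array. The 3 shoot groups overlapped and have no order among them.

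AT5G04730 had log2 values of 7.4 and 8.0 in WT roots without Fe, 6.7 and 5.9 in irt1 roots, and 3.7 and 3.5 in WT roots with Fe. In shoots it had 3.0 and 3.1 without Fe, 3.3 and 2.9 in irt1, and 3.2 and 3.3 in WT with Fe. The order of the root groups was that of AT3G61930, with no overlap between them. Its level in WT roots with Fe lay only 0.2 above the highest WT shoot array with Fe. Its 6 shoot arrays ran from 2.9 to 3.3, and irt1 overlapped both other groups. The closest arrays of WT shoots without and with Fe were 0.1 apart, the smallest step of values rounded to 1 decimal.

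AT4G19370 had log2 values of 7.6 and 8.2 in WT roots without Fe, 7.1 and 7.0 in irt1 roots, and 3.9 and 3.8 in WT roots with Fe. In shoots it had 3.4 and 3.7 without Fe, 4.0 and 3.9 in irt1, and 3.5 and 3.6 in WT with Fe. Here irt1 shoots reached the level of WT roots with Fe, and the 2 groups met at a value of 3.9. The shoot values of all 3 genes ran from 2.9 to 4.0, close to the lower quartile of every array (3.5 to 3.6). The deposited values carry no detection calls, so whether these shoot levels exceed background was not tested. The same holds for AT5G04730 and AT4G19370 in WT roots with Fe, whose values of 3.5 to 3.9 lay near that quartile too, so no fold is given for a comparison with any of these levels.

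**Figure D1:**
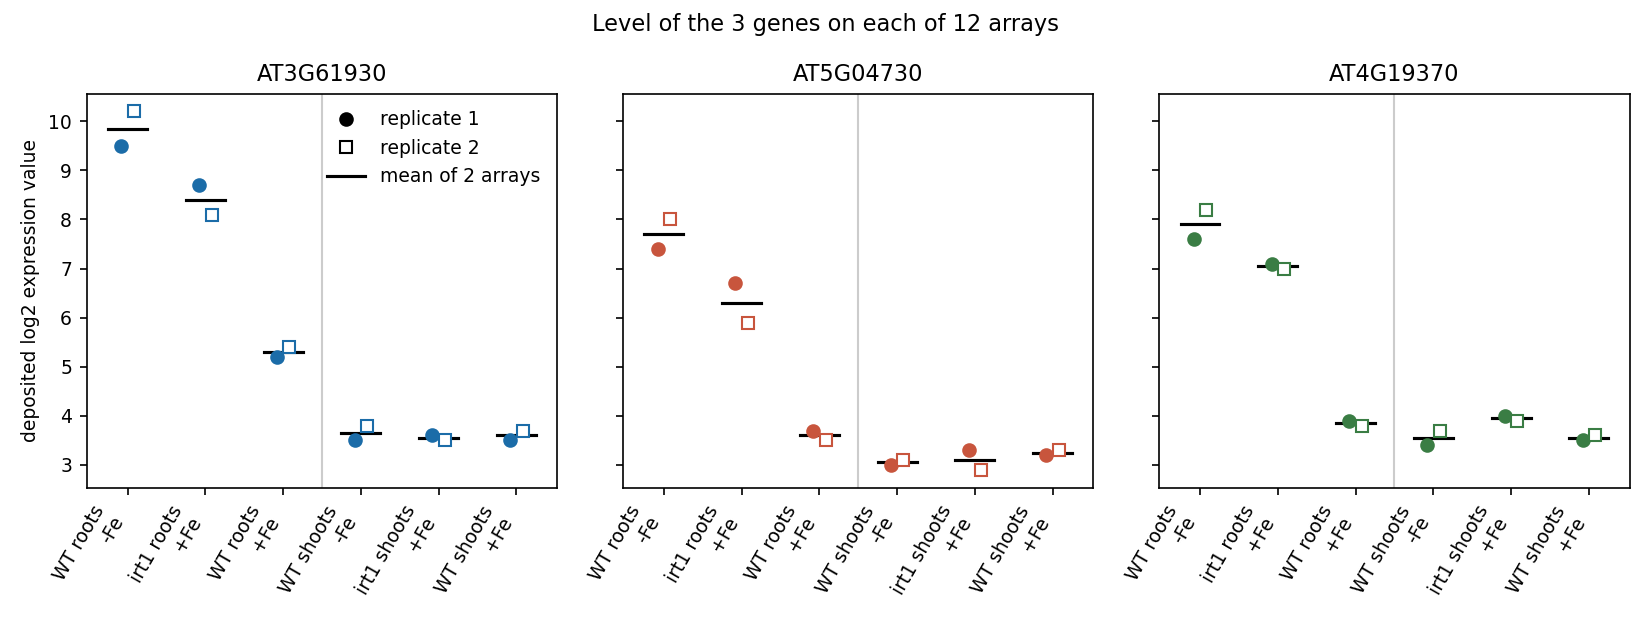
Deposited log2 expression values of AT3G61930, AT5G04730 and AT4G19370 (vertical axis) in the 6 groups (horizontal axis). Circles are replicate 1, open squares replicate 2 and bars the mean of the 2 arrays. In roots the groups without Fe and of irt1 lie above WT with Fe for each gene, and shoot values lie between 2.9 and 4.0.

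The response of WT roots to Fe deficiency was read from WT roots without and with Fe. The log2 difference was 4.55 ± 0.23 (SE) for AT3G61930, 4.10 ± 0.25 for AT5G04730 and 4.05 ± 0.17 for AT4G19370. For AT3G61930 this is a 23.4-fold difference in level. The arrays of the 2 groups did not overlap for 3 of 3 genes, as for 16.4% of all probe sets in that direction, and the closest arrays were 3.7 to 4.1 apart. The genes held ranks 8, 11 and 12 among the 22746 probe sets by log2 difference. They were chosen by this contrast, so these values are a description and no test is given. With any 1 of the 4 arrays left out the differences lay between 4.2 and 4.9 for AT3G61930, 3.8 and 4.4 for AT5G04730, and 3.75 and 4.35 for AT4G19370.

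The effect of the irt1 mutation on Fe-supplied roots was read from irt1 roots and the same WT root arrays with Fe. The log2 difference was 3.10 ± 0.23 (SE) for AT3G61930, an 8.57-fold difference in level, 2.70 ± 0.25 for AT5G04730 and 3.20 ± 0.17 for AT4G19370. Their ranks were 10, 12 and 7 among all probe sets by log2 difference, in the order just given. The arrays did not overlap for 3 of 3 genes, against 15.9% of all probe sets in that direction, and this contrast too was used to choose them. Only 28 probe sets (0.123%) had a log2 difference of 2 or more in irt1 roots, and 60 (0.264%) in WT roots without Fe. Both contrasts share their WT arrays with Fe.

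The direct comparison of irt1 roots with WT roots without Fe was not itself used to choose the genes, and it was tested. The choice did use the arrays of both groups, through their rises over WT roots with Fe. The p-values below are therefore not independent of the choice. AT3G61930 averaged 8.40 ± 0.42 in irt1 roots and 9.85 ± 0.49 in WT roots without Fe (SD, n = 2 each), a log2 difference of -1.45 ± 0.23 (SE; limma adjusted p = 0.0104). AT5G04730 averaged 6.30 ± 0.57 in irt1 roots and 7.70 ± 0.42 in WT roots without Fe (SD, n = 2 each), a log2 difference of -1.40 ± 0.25 (SE; limma adjusted p = 0.0171). AT4G19370 averaged 7.05 ± 0.07 in irt1 roots and 7.90 ± 0.42 in WT roots without Fe (SD, n = 2 each), a log2 difference of -0.85 ± 0.17 (SE; limma adjusted p = 0.0327). All 3 genes were thus lower in irt1 roots, by 2.73-fold, 2.64-fold and 1.8-fold in the order just given. So 3 of 3 genes were called at an adjusted p under 0.05, where 1.83% of all probe sets were called in either direction and 0.774% in the lower one. The arrays did not overlap for any of the 3, as for 14.8% of all probe sets in that direction. On the log2 scale their rise in irt1 roots was 68.1%, 65.9% and 79% of their rise in WT roots without Fe. Over the 221 probe sets called higher than WT roots with Fe in both groups, the median was 81.2% (quartiles 65.7% and 107%). All 3 genes lay between these quartiles, so a smaller rise in irt1 roots was not particular to them.

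The calls of the 3 genes between irt1 roots and WT roots without Fe rested on few arrays. They also rested on a spread that the model shares across all 6 groups. In the shoot groups the SD of the 3 genes was 0.07 to 0.28. In the 2 root groups compared it was 0.42 to 0.57, except 0.07 for AT4G19370 in irt1 roots. Without replicate 2 of WT roots without Fe, the adjusted p was 0.107 for AT3G61930, 0.186 for AT5G04730 and 0.22 for AT4G19370. Without replicate 2 of irt1 roots it was 0.118, 0.16 and 0.26 in the same order. AT4G19370 was also not called without replicate 1 of irt1 roots (adjusted p = 0.148) or when each array was shifted to the same median (0.0629). In a limma model of the 6 root arrays none of the 3 was called (adjusted p = 0.164, 0.204 and 0.204), nor in one of only the 4 arrays compared (0.313 for each). The direction was the same, lower in irt1 roots, in every one of these settings.

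The replicates of WT roots without Fe, and those of irt1 roots, differed in 1 direction for all 3 genes. In WT roots without Fe, replicate 1 minus replicate 2 was -0.7 for AT3G61930, -0.6 for AT5G04730 and -0.6 for AT4G19370. The median was 0 over all probe sets and -0.2 over the 221 probe sets called higher both in WT roots without Fe and in irt1 roots. In irt1 roots the same difference was 0.6, 0.8 and 0.1 for the 3 genes, with medians of 0 over all probe sets and 0.1 over those 221. In WT roots with Fe it was -0.2, 0.2 and 0.1, in no common direction. Replicate 2 of WT roots without Fe was thus the array on which all 3 were highest, and replicate 2 of irt1 roots was lower than replicate 1 for each. What differed between these replicates was not tested.

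**Figure D2:**
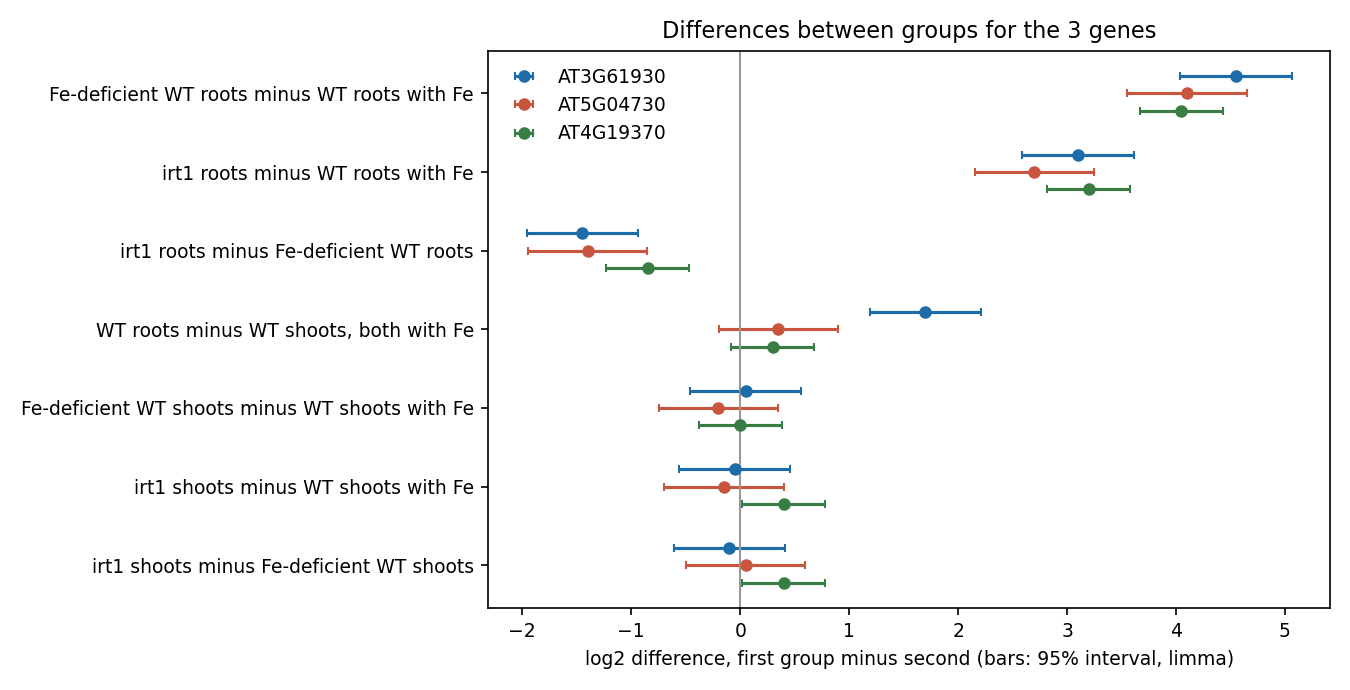
Log2 differences between groups (horizontal axis, first-named group minus second) for the 3 genes in 7 comparisons, with 95% intervals from the limma model as bars. The intervals are not adjusted for the number of probe sets. The root differences from WT with Fe lie between 2.7 and 4.55, irt1 roots lie below WT roots without Fe for each gene, and in shoots every difference lies between -0.2 and 0.4.

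Roots and shoots of WT plants with Fe were then compared. The choice of the genes did not use this contrast, but it used both groups as baselines of its root and shoot contrasts. These p-values too are therefore not independent of the choice. AT3G61930 averaged 5.30 ± 0.14 in WT roots and 3.60 ± 0.14 in WT shoots (SD, n = 2 each), a log2 difference of 1.70 ± 0.23 (SE; limma adjusted p = 5.49e-05). AT5G04730 averaged 3.60 ± 0.14 in roots and 3.25 ± 0.07 in shoots, a log2 difference of 0.35 with a 95% interval from -0.20 to 0.90 (limma adjusted p = 0.264). AT4G19370 averaged 3.85 ± 0.07 in roots and 3.55 ± 0.07 in shoots, a log2 difference of 0.30 with a 95% interval from -0.08 to 0.68 (limma adjusted p = 0.168). So 1 of the 3 genes was called higher in roots with Fe, where 32% of all probe sets were called higher and 22.8% lower. The root and shoot arrays did not overlap for 3 of 3 genes, against 39% of all probe sets in that direction. In a model of only the 4 arrays compared AT4G19370 was called too (adjusted p = 0.0472).

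In shoots the values without Fe and in irt1 stayed near those of WT shoots with Fe, as the choice of genes required. Without Fe the log2 differences from WT shoots with Fe were 0.05 for AT3G61930, -0.20 for AT5G04730 and 0 for AT4G19370. In irt1 they were -0.05, -0.15 and 0.40 in that order. AT4G19370 was the 1 gene of the 3 with both irt1 shoot arrays above both WT shoot arrays with Fe, as were the irt1 arrays for 17.7% of all probe sets. Without replicate 1 of irt1 shoots, the array apart in the GAPDH control, the 3 differences in irt1 were -0.10, -0.35 and 0.35, so that of AT5G04730 moved the most.

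Between irt1 shoots and WT shoots without Fe the choice of genes steady in shoots had already fixed small differences, so these values too are a description. AT4G19370 averaged 3.95 ± 0.07 in irt1 shoots and 3.55 ± 0.21 in WT shoots without Fe (SD, n = 2 each), a log2 difference of 0.40 with a 95% interval from 0.02 to 0.78. The differences were -0.10 for AT3G61930 (interval -0.61 to 0.41) and 0.05 for AT5G04730 (interval -0.50 to 0.60). Without replicate 1 of irt1 shoots they were 0.35 for AT4G19370 and -0.15 for each of the other two. The intervals are not adjusted for the number of probe sets. Of all probe sets 0.409% were called in this comparison, and AT4G19370 was not (limma adjusted p = 0.45).

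The genes were then set beside known genes of the Fe response. These lists, written with earlier results of these data known, held 4 measured coumarin genes of 7, 10 regulators of 19 and 2 metal transport genes of 12, and 0 of the 8 loci listed for Fe reduction, uptake and acidification. In WT roots without Fe, 3 of 4 coumarin genes were called higher, with a list median log2 difference of 2.7. They were S8H (5.40 ± 0.25 SE), F6H1 (2.40 ± 0.34) and the beta-glucosidase gene BGLU42 (3.00 ± 0.16), while F6H2 stood at 0.30 and was not called. Of 10 regulators 6 were higher and 0 lower (median 1.025), and both measured metal transporters of the third list, MTP8 (3.80 ± 0.14) and ZIP9 (1.70 ± 0.25), were higher. The median over all probe sets was 0, with 2.69% called higher. The call of 1 of the 6 regulators, bHLH115 (0.50 ± 0.11), was lost whichever of the 4 arrays was dropped (limma adjusted p = 0.0603 to 0.202).

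In irt1 roots against WT roots with Fe the same lists held 3 of 4 coumarin genes, 5 of 10 regulators and 2 of 2 metal transporters called higher and 0 lower, with medians of 1.4, 0.5 and 1.725 against 0 over all probe sets, 1.88% of which were called higher. S8H stood at 3.80 ± 0.25 (SE), BGLU42 at 1.25 ± 0.16 and MTP8 at 2.1 ± 0.14. Most of the regulators with the highest mean signal differed little: ILR3, bHLH104 and bHLH121, all bHLH transcription factors, had log2 differences of 0.20, 0 and -0.25 and were not called, nor was bHLH115 (0.30). The calls of F6H1, BTSL2 and ZIP9 in irt1 roots were lost whichever of the 4 arrays was dropped (limma adjusted p = 0.141 to 0.215, 0.0973 to 0.16 and 0.0725 to 0.138), and that of PYE was lost without either WT root array with Fe or without replicate 1 of irt1 roots (highest adjusted p = 0.112).

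Between irt1 roots and WT roots without Fe, 2 of 4 coumarin genes, 4 of 10 regulators and 1 of 2 metal transporters were called lower in irt1 roots and 0 higher, where 0.774% of all probe sets were called lower. Of the 4 coumarin genes 2 were called lower, S8H by a log2 difference of -1.60 ± 0.25 (SE) and BGLU42 by -1.75 ± 0.16, and the list's median was -1.225. MTP8, a Mn transporter gene, was lower by -1.70 ± 0.14, and ZIP9 stood at -0.35 and was not called. The regulators had a median of -0.475, with bHLH104 at 0.05 and bHLH121 at 0.10. The 4 called lower were, named after their values were seen, IMA1 (-1.85 ± 0.21), bHLH101 (-1.25 ± 0.20), BTSL2 (-0.95 ± 0.17) and PYE (-0.85 ± 0.12). The median over all probe sets was 0. Without replicate 2 of WT roots without Fe or replicate 2 of irt1 roots, S8H, bHLH101, BTSL2 and PYE were not called either (highest adjusted p = 0.117, 0.112, 0.157 and 0.0762), while IMA1, BGLU42 and MTP8 were. The call of bHLH101 was also lost without replicate 1 of WT roots without Fe, and that of BTSL2 without replicate 1 of irt1 roots.

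In shoots 5 of 10 regulators were called higher in WT without Fe and 4 of 10 in irt1, with 0 lower, against WT shoots with Fe. Both counts include BTSL1, an E3 ligase gene, through its probe set 262218_at (2.25 without Fe and 1.65 in irt1). Its other probe set, 262217_at, stood at 0.10 and 0.30 and was not called, so the counts depend on the probe set used. Of the 4 regulators with the highest mean signal, bHLH115 was called without Fe (0.55), a call lost without replicate 2 of WT shoots with Fe or replicate 1 of WT shoots without Fe (highest adjusted p = 0.16), and stood at 0.20 in irt1. ILR3, bHLH104 and bHLH121 had log2 differences of 0, 0.05 and -0.20 without Fe and -0.05, 0.10 and 0.10 in irt1, and were not called. Named after its values were seen, IMA1, for an Fe signalling peptide, rose by a log2 of 7.0 ± 0.21 in WT shoots without Fe and by 6.35 ± 0.21 in irt1 shoots (limma adjusted p = 6.87e-09 and 1.63e-08). The bHLH gene bHLH101 rose by 5.90 ± 0.20 in both (limma adjusted p = 1.87e-08 and 2.18e-08), and it too was named after its values were seen. Without replicate 1 of irt1 shoots, IMA1 stood at 6.15 and bHLH101 at 5.70 there, and 4 of 10 regulators were called higher. Of the 4 coumarin genes and the 2 metal transporters, 0 were called by limma in shoots without Fe or in irt1 shoots, where 4.86% and 3.57% of all probe sets were called, shares so small that 0 of 6 genes is no result about them. At an unadjusted p under 0.05 stood 1 coumarin gene without Fe and 0 in irt1, and 0 transporters in either, with coumarin medians of -0.2 and 0. Whether the shoot response of a listed gene differs from that of the 3 genes was not tested.

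Across the 12 arrays the 3 genes correlated closely with each other. Pearson's r was 0.984 between AT3G61930 and AT5G04730, 0.973 between AT3G61930 and AT4G19370, and 0.987 between AT5G04730 and AT4G19370. Over the 6 root arrays alone it was 0.997, 0.989 and 0.983, and over the 6 shoot arrays 0.387, 0.137 and 0.07. The points share groups and arrays, and high r values follow from the choice of genes that separate the same groups, so they are a description. In shoots, where the values moved little, r was low.

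By the same measure, the named probe sets closest to AT3G61930 were AT3G07720 (r = 0.996), XTH26 for a cell wall xyloglucan enzyme (0.996), TET8 for a tetraspanin (0.991), BTSL1 for a hemerythrin E3 ligase (0.99) and AT4G09110 (0.989). S8H, for a scopoletin hydroxylase of fraxetin synthesis, was the closest of all probe sets both to AT5G04730 (r = 0.994) and to AT4G19370 (0.992). AT4G09110 came next for both (0.992 and 0.991). For AT5G04730 these were followed by AT5G38820 (0.989) and the other two genes, and for AT4G19370 by UGT72E1, for a UDP-glycosyltransferase (0.99), AT5G04730 and AT5G38820 (0.977). Unnamed probe sets stood among them: the 5 named ones lay within the first 10 of all probe sets for AT3G61930, the first 7 for AT5G04730 and the first 9 for AT4G19370. The order depended on the measure. Over the 6 root arrays S8H had an r of 0.993 to AT5G04730, below AT3G61930 (0.997). Its r to AT4G19370 was 0.993 there, below UGT72E1 (0.997).

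The size of the difference varied widely among these close patterns. In WT roots without Fe the log2 difference from WT roots with Fe was 3.65 for AT3G07720, 3.45 for AT4G09110, 2.80 for AT5G38820, 2.45 for UGT72E1, 2.35 for XTH26 and 1.00 for TET8. Correlation does not weigh that size, and TET8 changed far less than AT3G61930 at an r of 0.991. The 2 probe sets of BTSL1 disagreed in shoots: 262217_at, the one close to AT3G61930, had a log2 difference of 0.10 in WT shoots without Fe, against 2.25 for 262218_at. A likeness of that locus in shoots therefore depends on the probe set.

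**Figure D3:**
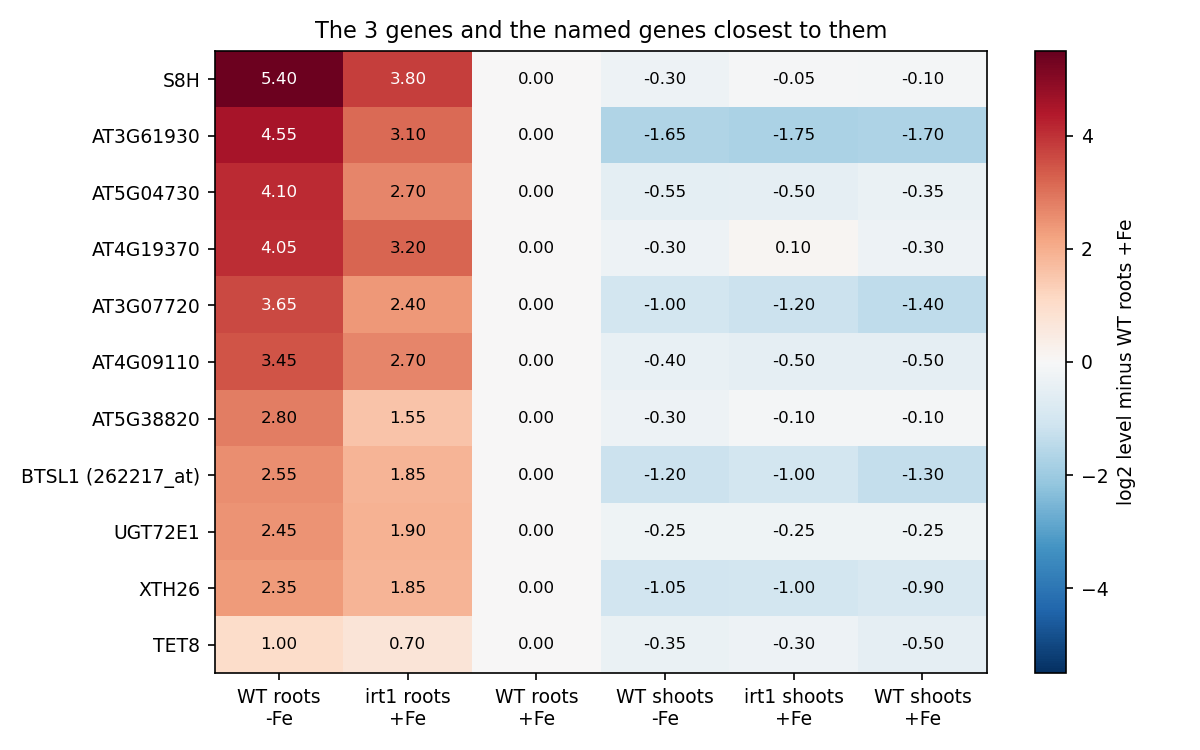
Mean log2 level in each group minus that of WT roots with Fe (colour and printed number), for the 3 genes and the 8 other named genes closest to any of them by Pearson's r over 12 arrays. Values in WT roots without Fe run from 1.00 for TET8 to 5.40 for S8H, and none of the 11 has a shoot value above 0.10.

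The nearest measured neighbours on the chromosome were taken from the RefSeq gene table. In WT roots without Fe and in irt1 roots their log2 differences from WT roots with Fe ran from -0.35 to 0.40. For AT3G61930 both adjacent protein-coding genes were measured. AT3G61920 had log2 differences of -0.05 ± 0.16 (SE) in WT roots without Fe and -0.10 ± 0.16 in irt1 roots, each against WT roots with Fe. MTPA1, of the metal tolerance protein family, stood at 0.20 ± 0.10 and 0.05 ± 0.10. Their levels of 2.4 to 4.0 on all arrays lay near the low end of the scale.

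For AT4G19370 the adjacent gene AT4G19380 was measured, with log2 differences of 0 ± 0.21 (SE) in WT roots without Fe and -0.35 ± 0.21 in irt1 roots. On the other side 8 protein-coding genes without a named probe set came before AT4G19240, which stood at 0 ± 0.11 and 0.15 ± 0.11. Both lay between 2.7 and 3.5 on all root arrays, so 4 of the 6 neighbours were near the low end of the scale in roots, where a lower level could hardly be seen. For AT5G04730, 1 gene was passed over on each side. AT5G04710 had -0.15 ± 0.11 in both comparisons, and AT5G04750 had 0.40 ± 0.11 and 0.30 ± 0.11. The AT5G04750 arrays of both groups (9.3 to 9.6) lay above those of WT roots with Fe (9.1). So did those of 16.4% and 15.9% of all probe sets in the 2 comparisons. Of these 6 neighbours 0 were called in WT roots without Fe and 0 in irt1 roots (lowest limma adjusted p = 0.0669 and 0.219). In each comparison 1 stood at an unadjusted p under 0.05. Of all probe sets 5.19% and 3.4% were called in either direction, shares so small that 0 of 6 is no result about the neighbours.

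**Figure D4:**
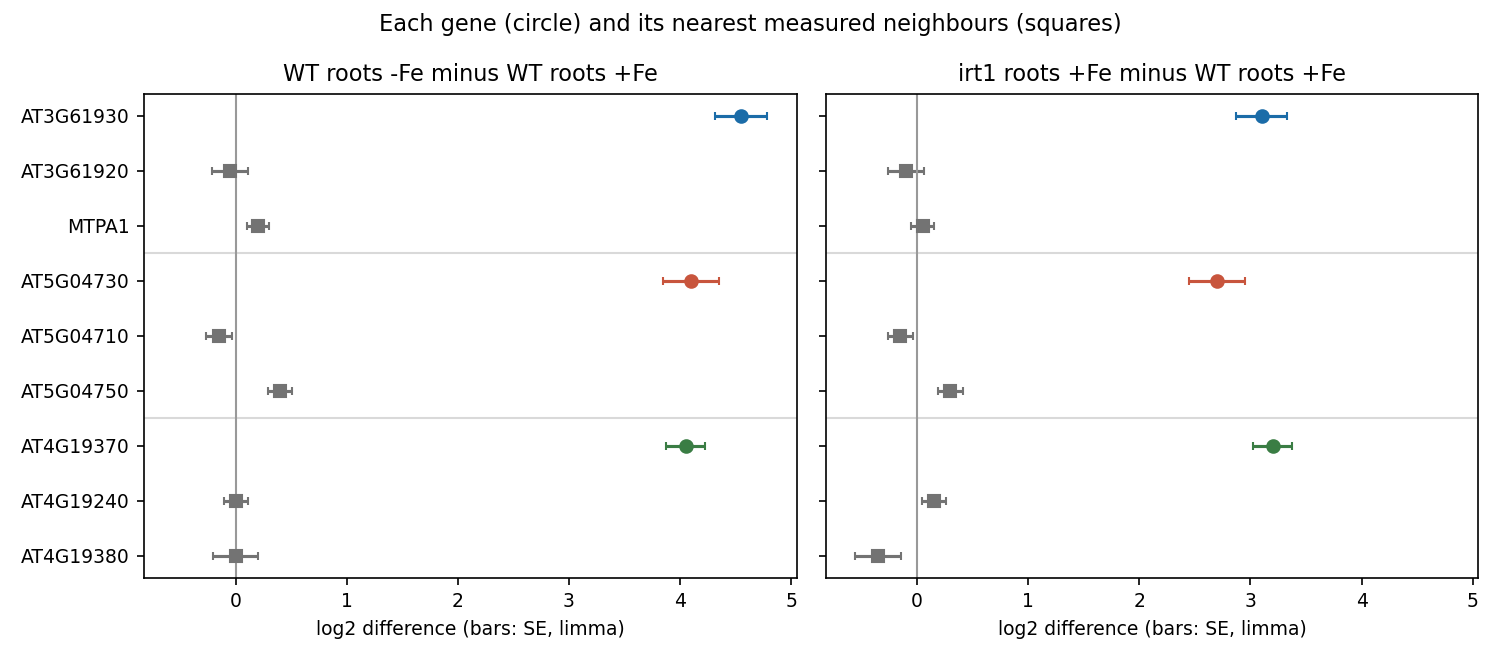
Log2 difference from WT roots with Fe (horizontal axes; bars are SE from limma) in WT roots without Fe (left) and irt1 roots (right), for each of the 3 genes (circles) and its nearest measured neighbours on the chromosome (squares). The neighbours lie between -0.35 and 0.40 and the 3 genes between 2.7 and 4.55.

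Markers of cell types were read in the same root arrays, since fewer cells of a type and less RNA per cell cannot be told apart in whole organs. Of 3 measured root hair markers of a list of 4, XTH26 (2.35 ± 0.13 SE) and EXPA18 (0.70 ± 0.17) were called higher in WT roots without Fe and EXPA7 (0.20 ± 0.16) was not, where 2.69% of all probe sets were called higher. The call of EXPA18 was lost whichever of the 4 arrays was dropped (limma adjusted p = 0.0633 to 0.335). In irt1 roots XTH26 alone was called (1.85 ± 0.13), where 1.88% were called higher. XTH26 was also among the probe sets closest to AT3G61930 (r = 0.996). Its rise is therefore not a separate reading of root hair cells. The summed linear signal of the 3 root hair markers, XTH26 included, was 733 to 799 in WT roots without Fe. It was 610 to 713 in irt1 roots and 464 to 566 in WT roots with Fe. For the 2 root markers it was 6029 to 6798, 6087 to 6268 and 5418 to 5599 in the same order, and neither was called. The 4 shoot markers summed to 195 to 222 in WT roots without Fe and 255 to 300 in irt1 roots, against 439 to 507 in WT roots with Fe, with 3 of 4 called lower in each, RCA in irt1 roots only while all 4 arrays compared were kept (adjusted p = 0.103 to 0.361 otherwise). Of all probe sets 5.19% and 3.4% were called in either direction in these comparisons. Within shoots 2 of the 4 shoot markers were called lower too, against WT shoots with Fe and with all arrays kept. PSAN stood at -1.5 without Fe and -1.05 in irt1, and LHCB4.3 at -1.95 and -1.75. In these shoot comparisons 4.86% and 3.57% of all probe sets were called. These 2 markers thus differed with Fe status in shoots themselves, so their sum is not a measure of shoot tissue alone. Between irt1 roots and WT roots without Fe, 0 root hair markers and 0 root markers were called, and 1 shoot marker, PSAN of photosystem I, was called higher in irt1 roots (log2 difference 0.70), a call lost whichever of the 4 arrays was dropped, where 1.83% of all probe sets were called. Over all arrays the lowest log2 value was 3.3 for the root markers, 3.0 for the root hair markers and 4.0 for the shoot markers. Whether such levels exceed background was not tested. The part of these cell types in the values of the 3 genes was not tested either.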

How the data were processed

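Single-colour Affymetrix arrays of Arabidopsis roots and shoots (12 arrays, 6 groups of 2) were used. The deposited values are log2 expression values that the authors made with RMA, per the submitters' processing notes. Its version is not given in the sources used here, nor is whether the organs were normalised in 1 run. Values ran from 1.9 to 13.5, were rounded to 1 decimal and had array medians of 5.4 to 5.6.

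The 64 Affymetrix controls among the 22810 probe sets did not enter any test. Names came from the platform annotation, updated through Entrez IDs to the RefSeq table of TAIR10.1: 13513 probe sets had 1 gene (13436 matched), 503 had several and 8730 were unnamed. For a listed locus with several probe sets, the one with the highest mean was used.

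A linear model with a mean per group over all 12 arrays (6 residual degrees of freedom) was fitted with limma 3.58.1 in R 4.3.3, with eBayes moderation and two-sided tests, adjusted by Benjamini-Hochberg over 22746 probe sets. Adjusted p, SE and 95% intervals come from it. Calls are at an adjusted p under 0.05. It was tested on simulated data in which all groups of a probe set had the same spread, so unequal spread between groups was not covered. An exact permutation test of 2 against 2 arrays cannot go below 0.333, so none was run. With 2 arrays a group, the number of arrays limits the precision.

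The genes, lists and tests were chosen with earlier results of these data known. Besides the 3 genes, the text names the 5 named probe sets with the highest Pearson r to each over 12 arrays, up to 4 members of each list by mean signal, and the nearest measured neighbours. IMA1, bHLH101, BTSL2 and PYE fall outside this rule and were named after their values were seen. Families by protein domain were not compared, since the tables used give no products. A lignin list of 16 loci had 1 measured member, HCT, called higher in WT roots without Fe (log2 difference 0.85 ± 0.13 SE; adjusted p = 0.0532 without replicate 2 of that group) and not in irt1 roots (0.35). The model, normalisation, dim probe sets, variance prior, array weights, replicate number and each array in turn were varied.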

Additional observations from a re-analysis of the deposited data

How the results depend on the processing

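No direction of a called difference reversed. In irt1 roots against WT roots without Fe, leaving out 1 of the 4 arrays gave log2 differences of -1.8 to -1.1 for AT3G61930, -1.8 to -1 for AT5G04730 and -1.15 to -0.55 for AT4G19370 (limma adjusted p 0.0128 to 0.118, 0.0157 to 0.186 and 0.0128 to 0.26). The calls were lost without replicate 2 of either group for all 3, and for AT4G19370 also without irt1 replicate 1. The values were -1.45, -1.4 and -0.85 in the model of the arrays of one organ and in the model of only the groups compared, where none of the 3 was called. With each array shifted to one median AT4G19370 stood at -0.8 and was not called. In WT roots against WT shoots AT4G19370 (0.3) was called in the model of only the groups compared. AT5G04730 in WT shoots without Fe against WT shoots with Fe was at -0.3 with arrays shifted to one median, against -0.2.

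Counts of called probe sets moved more. With only the groups compared they were 0 in irt1 against Fe-deficient WT roots (416 in the 12-array model; 3014 at an unadjusted p under 0.05), 0 in the same comparison of shoots (93; 1949), 0 in Fe-deficient WT roots (1181; 4053), 0 in irt1 roots (774; 4258), 3 in Fe-deficient WT shoots (1106; 3603) and 0 in irt1 shoots (813; 2995), the last 4 against WT with Fe. With the arrays of one organ these limma counts were 22, 0 (1607 at an unadjusted p under 0.05), 535, 221, 121 and 80 in that order. Without 1 array they were 81 to 163, 22 to 57, 455 to 873, 252 to 359, 350 to 1236 and 299 to 1105. Array weights left 57 in irt1 against Fe-deficient WT shoots. Leaving out probe sets with a mean under 5.575 removed AT5G04730 and AT4G19370 from the test and left 8202 called in WT roots against WT shoots, against 12470, with fewer probe sets tested.

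The labels do not say whether the replicate numbers pair the samples. The correlation of replicate 1 minus replicate 2 between groups ran from -0.092 to 0.199. With a replicate block more probe sets were called in every comparison, for example 521 against 416 in irt1 against Fe-deficient WT roots. With the replicate block AT3G61930, AT5G04730 and AT4G19370 stood at -1.45, -1.4 and -0.85 in irt1 against Fe-deficient WT roots and all stayed called. No other call of the 3 genes changed with the block. The 5 named probe sets closest to a gene were 0 of the same 5 for each gene by Spearman's rho, 0, 1 and 2 by r over root arrays and 4, 2 and 4 over group means, for AT3G61930, AT5G04730 and AT4G19370. Causes were not tested.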
